A study of Mus musculus with 12 samples.

Results

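Expression of Myc and of 41 further genes for ribosome production and the growth metabolism linked to it was followed across mouse leukemia with and without Rictor. The 42 genes were taken by name from a list of Myc targets and ribosome biogenesis factors. Each was read from its brightest probe set that carries the symbol of that gene only. Such a probe set existed for 41 of the 42, and all 41 passed the filter on dim genes, so they are 41 of the 12573 genes tested. Altogether 18194 genes could be read in this way. Mrto4, a ribosome assembly factor, has no value here because its probe set is shared with 2 of its pseudogenes.

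The RNA came from leukemia cells of mouse bone marrow, labelled K+G– and taken by flow cytometry from recipients of a first transplantation, when CD45.2+ cells made up over 50% of the white cells in their blood. The labels also name peripheral blood as the host tissue. It was hybridised to 12 Affymetrix arrays in 4 groups of 3. The groups are Rictor wild-type (Control) and Rictor-deleted (RictorΔ/Δ) leukemia driven by the fusion MLL-AF9, and the same pair of genotypes in leukemia driven by the fusion MLL-NRIP3. The series text asks what the loss of Rictor changes in MLL-AF9 leukemia, and uses MLL-NRIP3 leukemia for further examination. All 4 groups thus carry an MLL fusion, and no array holds cells without leukemia. The sources used here do not say how Rictor was deleted, give no age or sex of the mice, and leave unsaid which mouse or clone each array stands for. P-values therefore measure the spread between these arrays, which may be technical.

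Rictor is an essential part of mTORC2, a kinase complex that acts on AKT and related kinases. Myc is a transcription factor that pairs with Max and binds the E-box, and it is known for raising the transcription of genes that make ribosomes. Ribosomes are built in the nucleolus: RNA polymerase I transcribes the ribosomal RNA precursor, small nucleolar RNAs guide the proteins that modify it, and assembly factors cut and fold it into the small and the large subunit. In MLL-driven leukemia Myc is known as a factor of leukemic growth.

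The canonical E-box, CACGTG, was looked for in the RefSeq promoter windows of assembly GRCm38.p6, which run from 250 bases before to 50 bases after the annotated start. Of the 42 genes 36 had an entry, and 9 of the 36 (25%) held the motif, against 1174 of 10203 tested genes with an entry (11.5%). The motif is its own reverse complement, so both strands were searched at once, and windows of the members and of all tested genes had similar median GC contents of 59.7% and 60.3%. A match is a description of these letters, not a bound site. The matches are shown because they let a reader set the motif beside the values of each gene below; the capitals mark the E-box, and each line runs 5′ to 3′ on the strand of the gene.
Nop2, chr6:125131811-125131840, plus strand, 60 bases before the start: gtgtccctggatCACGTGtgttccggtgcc
Tsr1, chr11:74898092-74898121, plus strand, just after the start: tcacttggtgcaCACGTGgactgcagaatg
Mybbp1a, chr11:72441347-72441376, plus strand, just after the start: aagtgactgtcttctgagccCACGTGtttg
Hspd1, chr1:55088306-55088335, minus strand, 80 bases before the start and within the annotated span of Hspe1: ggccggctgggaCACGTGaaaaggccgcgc
Wdr43, chr17:71616220-71616249, plus strand, just after the start: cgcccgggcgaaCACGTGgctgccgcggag
Utp20, chr10:88826765-88826794, minus strand, just after the start: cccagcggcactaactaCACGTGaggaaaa
Pes1, chr11:3963965-3963994, plus strand, just after the start: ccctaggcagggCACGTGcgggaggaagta
Grwd1, chr7:45830740-45830769, minus strand, just after the start: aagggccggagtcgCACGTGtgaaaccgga
Nme1, chr11:93968037-93968066, minus strand, 29 bases before one annotated start: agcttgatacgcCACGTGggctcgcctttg
Nme1, chr11:93968273-93968302, minus strand, 18 bases before another annotated start: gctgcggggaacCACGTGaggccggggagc

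Ppan and Mybbp1a, the members called below, differ in this respect: the window of Ppan holds no CACGTG, and that of Mybbp1a holds it only after the start. The 250 bases before each start, shown to make this visible, contain none.
Ppan, chr9:20887925-20888174, plus strand: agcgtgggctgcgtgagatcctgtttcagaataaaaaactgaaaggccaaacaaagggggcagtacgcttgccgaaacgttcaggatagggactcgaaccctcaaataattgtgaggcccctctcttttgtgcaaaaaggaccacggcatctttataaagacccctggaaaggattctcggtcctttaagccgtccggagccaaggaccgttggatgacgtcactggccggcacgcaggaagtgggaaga
Mybbp1a, chr11:72441077-72441326, plus strand: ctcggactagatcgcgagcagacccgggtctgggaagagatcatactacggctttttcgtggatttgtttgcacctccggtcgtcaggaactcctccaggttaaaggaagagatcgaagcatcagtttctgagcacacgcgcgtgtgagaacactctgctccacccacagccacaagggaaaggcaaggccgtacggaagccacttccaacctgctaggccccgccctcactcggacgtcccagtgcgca

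Some arrays stand apart. MLL-NRIP3 control arrays 1 and 2 had mean hybridization control signals (log2) of 11.2 and 10.6 against 9.38 to 9.59 on the other 4 arrays of the model, and 5′ to 3′ Gapdh ratios of 0.562 and 0.738 against 0.881 to 0.965. Counts are therefore also given without these arrays. In MLL-AF9 leukemia Xist read 2387 in controls and 98.5 in deleted cells on average, and the Y-linked Eif2s3y 4.97 and 162, so that genotype and sex cannot be told apart there. The brightest Rictor probe set lay between 83.7 and 92.4 in MLL-AF9 controls and between 77.9 and 96.4 in deleted cells, and it does not check the genotype, since its position relative to the deleted part is not given. Kit was 159.6 to 232 in MLL-AF9 controls and 135 to 157 in deleted cells (limma adjusted p = 0.056), and Ptprc, which encodes CD45, read 1448 to 1656 on MLL-AF9 and 1686 to 2244 on MLL-NRIP3 arrays.

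In MLL-AF9 leukemia most of these genes read slightly lower after Rictor deletion, and the assembly factor gene Ppan and the nucleolar regulator gene Mybbp1a passed the test. Ppan fell 1.34-fold and Mybbp1a 1.20-fold. Each model was fitted on its own 6 arrays with limma on log2(intensity + 16), and a gene was called at a Benjamini-Hochberg adjusted p under 0.05 over all 12573 genes. Called lower were 2 of 41 members, against 4.46% of all genes tested, and 0 were called higher, against 3.8% (8.26% in either direction). The fit of all 12 arrays called 0 members, against 0.461% of genes lower and 0.939% higher. At an unadjusted p under 0.05, 12 of 41 members were lower, a larger share than the 12.4% of all genes. At that threshold 0 were higher, against 9.41% of all genes. The log2 fold change was negative for 34 of 41 members (54.3% of all genes), with a median of −0.11 beside −0.01 over all genes. At the adjusted threshold the members were thus called lower about as often as all genes were. The counts of signs and of unadjusted p are a description and no test, since the members share their arrays. Without control array 3, which had the highest polyA control signal, 36 of 41 were negative and the median was −0.11; without Rictor-deleted array 1 it was 28 of 41 and −0.07. These values are those of the brightest probe sets: of 38 further probe sets of 26 members 20 were negative and 18 positive, with a median of −0.02 and 0 called, and with the mean of all probe sets of a gene the members' median was −0.06.

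Cell type markers also differed between the genotypes of this model. Of 13 tested neutrophil markers all 13 were called higher, and their summed intensity was 9267 to 13507 on the control arrays and 30242 to 33169 on the deleted arrays. Of 6 stem and progenitor markers 4 were called lower, with sums of 2212 to 2553 and 1855 to 2035. Of 9 monocyte and macrophage markers 6 were called lower, with sums of 1976 to 2195 and 1615 to 1761. Of 7 primary granule markers 5 were called higher, with sums of 10679 to 11286 and 14166 to 16807. Of 5 mast cell, basophil and eosinophil markers the eosinophil granule genes Prg2 and Prg3 were called lower, at −1.62 and −2.14, and the summed level of that list went from 1137 to 1269 on control arrays to 438 to 561 on deleted arrays. B lineage (2 of 6 lower), T and NK (1 of 5 higher) and megakaryocyte markers (1 of 3 lower) gave fewer calls. Of 19 G2/M and mitosis genes 7 were called higher. The erythroid markers with a probe set summed to 36.4 to 63.7 over all 12 arrays, with Hba-a1 under the filter in each group. The part of these lists in the values of the ribosome genes was not tested, and in RNA of a cell population fewer cells that express a gene and less of its RNA per cell cannot be told apart.

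In MLL-NRIP3 leukemia the signs lay mostly the other way, and no member passed the test. Called were 0 of 41, against 1.53% of all genes (0.779% higher and 0.748% lower). At an unadjusted p under 0.05 in limma, 2 members were higher (7.82% of all genes) and 1 lower (9.86%). The fit of all 12 arrays, which lends the tighter spread of the MLL-AF9 arrays to this model, called Npm1 and Hspd1 higher and Wdr12 lower, at adjusted p of 0.035, 0.034 and 0.023; the same fit called 5.96% of all genes higher and 7.83% lower. The log2 fold change was positive for 31 of 41 members (49.9% of all genes) and negative for 10 (50.1%), with a median of 0.11 beside 0.00 over all genes. Without control arrays 1 and 2 it was positive for 29 of 41, with a median of 0.07; that fit sets the deleted arrays against control array 3 alone, and its spread comes from the deleted arrays. The median was 0.05 without control array 1 alone and 0.21 without Rictor-deleted array 3. Of the 38 further probe sets 22 were positive, with a median of 0.04 and 0 called.

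Markers differed between the genotypes in this model too. Here 4 of 13 neutrophil markers were called lower, with sums of 5206 to 21815 on control arrays and 1950 to 2140 on deleted arrays, and 3 of 24 immediate early and handling stress genes were called higher, with sums of 8117 to 9150 and 11314 to 22037. Of 6 stem and progenitor markers 1 was called higher, Cd34 (1.41), with sums of 4034 to 4998 and 5366 to 6449. By sign 5 of the 6 were positive and 1 negative, Flt3, at −1.17 (limma adjusted p = 0.081) without overlap of the groups. In MLL-AF9 leukemia Cd34 was called lower (−0.44). Among 5 mast cell, basophil and eosinophil markers only Cpa3 (2.69) was called, higher, and by sign 2 were positive and 3 negative. Among 3 megakaryocyte markers Itga2b (1.18) was called higher, and all 3 were positive. Among 6 B lineage markers only the immunoglobulin gene Ighm (−3.09) was called, lower, and by sign 3 were positive and 3 negative. The part of these marker lists in the values of the ribosome genes was not tested.

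The difference of the responses, MLL-NRIP3 minus MLL-AF9, was fitted on all 12 arrays. It was positive for 37 of 41 members, against 51.4% of all genes, and negative for 4 (48.6%), with a median of 0.23 beside 0.01. None of the 41 was called, against 4.29% of all genes (1.92% higher and 2.37% lower). At an unadjusted p under 0.05 in limma 9 of the 41 were higher, a larger share than the 9.11% of all genes. By the same measure 1 was lower, against 9.62% of all genes. Of the 38 further probe sets 26 were positive, with a median of 0.10. With array weights, an alternative that counts noisier arrays less, 10 members were called, all of them higher. That fit also called several times as many of all genes as the main fit did (counts below). The count over all genes covers both directions, so these counts do not show whether the 10 calls are particular to the members. By sign, 24 members (58.5%) were below 0 in MLL-AF9 and above 0 in MLL-NRIP3 leukemia, against 24.9% of all genes. Another 10 were below 0 in both models (29.4% of all genes) and 7 were above 0 in both (25.0%). Above 0 in MLL-AF9 and below 0 in MLL-NRIP3 leukemia were 0 members (20.7% of all genes). These counts of signs and of unadjusted p are again a description and no test, since the members share their arrays.

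**Figure D1:**
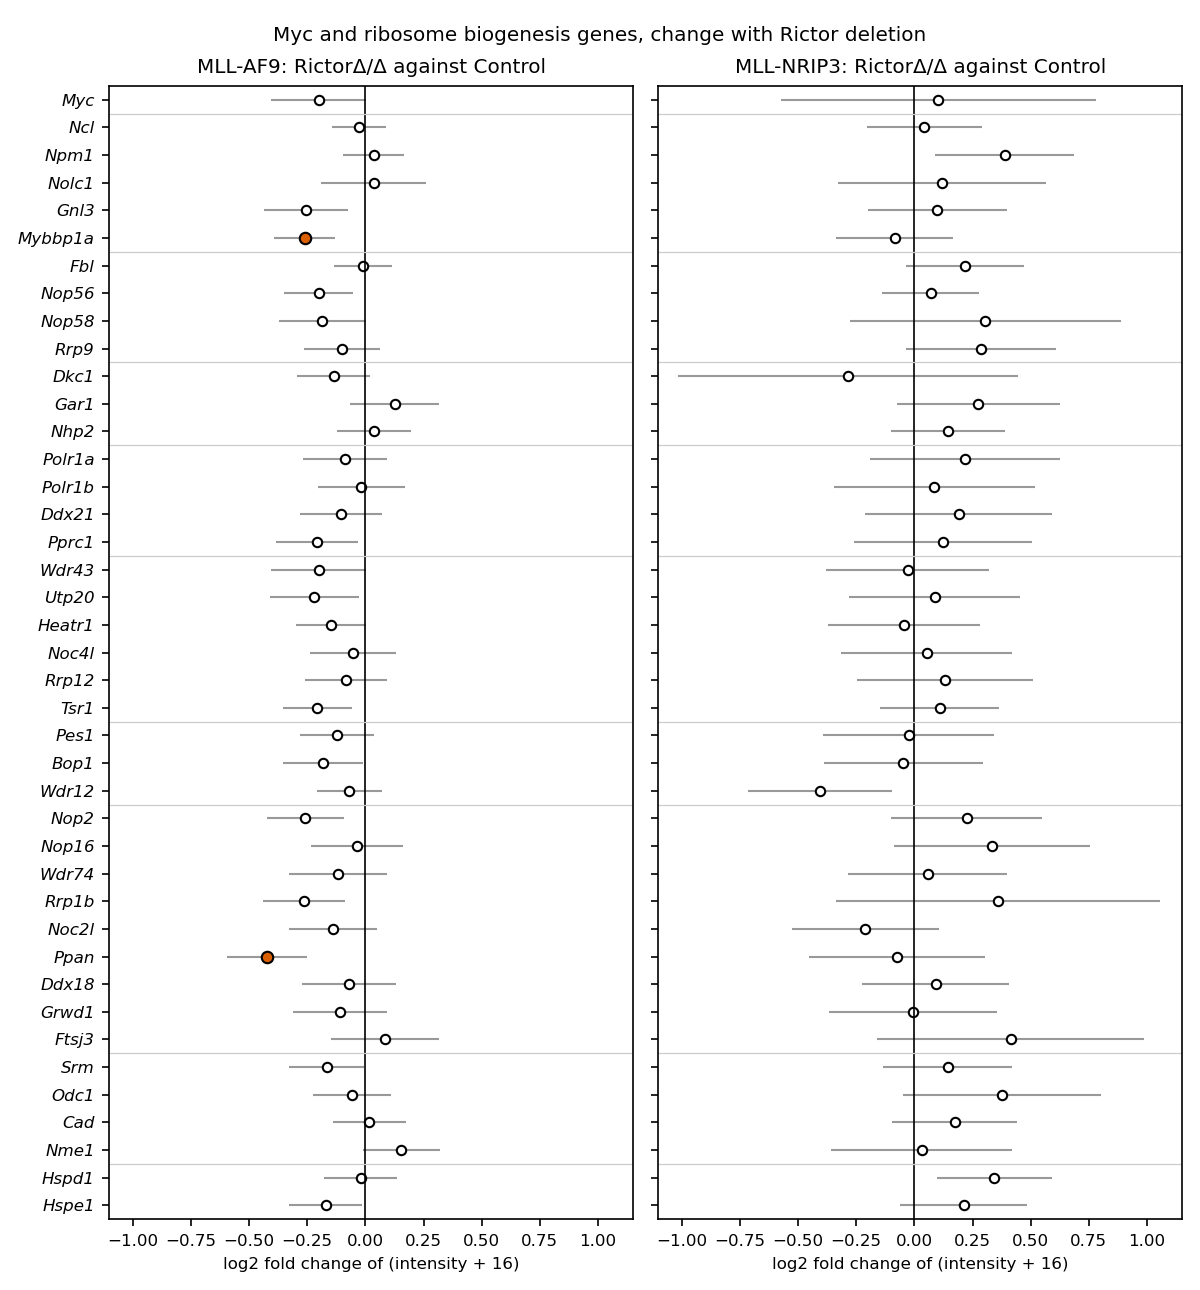
Log2 fold change of (intensity + 16), RictorΔ/Δ against Control, for the 41 members in MLL-AF9 (left) and MLL-NRIP3 leukemia (right), in the order of their roles, with 95% confidence intervals from limma as horizontal lines. Filled points are the genes called: Ppan and Mybbp1a in MLL-AF9 and none in MLL-NRIP3 leukemia, where the intervals are wider.

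Myc itself did not pass the test in either model. In MLL-AF9 leukemia it read 279, 235 and 249.6 on the control arrays and 188, 240 and 232 on the deleted arrays. The groups overlap, with deleted arrays 1 and 3 below all controls and deleted array 2 among them. On the log2 scale the change was −0.20 ± 0.09 (SE, limma adjusted p = 0.24). On MLL-NRIP3 arrays it read 94.4, 240 and 200.2 on the control arrays and 161, 162 and 223 on the deleted arrays. Control array 1 has the lowest value of the 6, and the deleted arrays lie within the range of the controls. On the log2 scale the change was 0.10 ± 0.30 (SE, adjusted p = 0.89); it was −0.26 without control array 1, −0.04 without deleted array 3 and −0.14 without control arrays 1 and 2, so its direction rests on single arrays. The difference of responses was 0.30 ± 0.35 (SE, adjusted p = 0.70).

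Among the 5 genes of nucleolar structure and growth control, Mybbp1a, which encodes a Myb-binding protein that acts in ribosomal RNA transcription and processing, was the only one called. In MLL-AF9 leukemia it read 402, 404 and 442 on the control arrays and 353, 341 and 339 on the deleted arrays. The groups do not overlap. Its log2 fold change was −0.26 ± 0.06 (SE, limma adjusted p = 0.020). The call ended without control array 3 (adjusted p = 0.053), Rictor-deleted array 2 or Rictor-deleted array 3 (0.078 each), with the mean of its probe sets (0.11) and in the fit of all arrays (0.24), and its dimmer probe set was at −0.04. In MLL-NRIP3 leukemia Mybbp1a was at −0.09 ± 0.11 (SE, adjusted p = 0.73).

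Gnl3, which encodes nucleostemin, a nucleolar GTPase of growing and stem cells, also had deleted arrays all below the controls in MLL-AF9 leukemia. It read 322, 279 and 314 on the control arrays and 226, 275 and 259 on the deleted arrays, at −0.25 ± 0.08 (SE, limma adjusted p = 0.085). Npm1, the nucleolar chaperone nucleophosmin, showed its larger value in the other model. On MLL-NRIP3 arrays it read 1888, 2203 and 2744 on the control arrays and 3074, 2788 and 3005 on the deleted arrays, which do not overlap although control array 3 is close to them. Its log2 fold change was 0.39 ± 0.13 (SE, adjusted p = 0.18, or 0.021 without control array 3), and a further Npm1 probe set was at 0.21. In MLL-AF9 leukemia Npm1 was at 0.04 ± 0.06. Ncl (nucleolin) and Nolc1, a chaperone of small nucleolar ribonucleoproteins, lay between −0.03 and 0.12 in both models.

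The 4 proteins of box C/D small nucleolar ribonucleoproteins, which carry out and support 2′-O-methylation and cleavage of ribosomal RNA, all had negative values in MLL-AF9 and positive values in MLL-NRIP3 leukemia, and none was called. Rrp9 binds the U3 RNA. It read 78.9, 79.6 and 82.9 on MLL-AF9 control arrays and 70.7, 74.3 and 77.1 on deleted arrays. Rrp9 read, on MLL-NRIP3 arrays, 111, 124 and 130.4 on control arrays and 166, 156 and 135 on deleted arrays. The deleted arrays thus lie below all controls in the first model and above all controls in the second. The difference of responses was 0.39 ± 0.14 (SE, limma adjusted p = 0.15). Nop56, a core protein of these particles, was at −0.20 ± 0.07 (SE) in MLL-AF9 leukemia without overlap of the groups (adjusted p = 0.10). Nop58, its partner, was at −0.18 and 0.31 in the 2 models, and Fbl, the methyltransferase fibrillarin, at −0.01 and 0.22.

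The 3 proteins of box H/ACA particles, which guide pseudouridylation, did not share a direction. Dkc1, the pseudouridine synthase dyskerin and the only member on the X chromosome, read 777, 1036 and 2232 on MLL-NRIP3 control arrays and 1029, 934 and 1030 on deleted arrays. Control array 3 is far above the other 5, and this holds on all 3 probe sets of the gene: the others read 228, 301 and 761 and 161, 238 and 531 on the 3 control arrays, in that order. For the brightest, the log2 fold change was −0.28 ± 0.32 (SE, limma adjusted p = 0.68); it was 0.15 without control array 3, so its sign rests on that array. Gar1 was at 0.13 and 0.28 in MLL-AF9 and MLL-NRIP3 leukemia and Nhp2 at 0.04 and 0.15, with groups that overlap in both models.

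RNA polymerase I was represented by its large subunits Polr1a and Polr1b. Listed beside them were the helicase Ddx21, which acts in ribosomal RNA transcription and processing, and Pprc1. Pprc1 encodes a transcriptional coactivator and not a part of this polymerase. All 4 were negative in MLL-AF9 leukemia, between −0.21 and −0.02, and positive in MLL-NRIP3 leukemia, between 0.09 and 0.22, with 0 called. Pprc1 had the largest shift in the first model. It read 70.7, 66.7 and 61.0 on control arrays and 56.0, 56.5 and 52.8 on deleted arrays, without overlap, at −0.21 ± 0.08 (SE, limma adjusted p = 0.15).

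The 6 genes for the small subunit were all negative in MLL-AF9 leukemia, with a median of −0.17, and 0 were called. Tsr1, a late factor of the small subunit precursor, read 234, 248 and 235 on control arrays and 196, 223 and 197 on deleted arrays. Tsr1 read, on MLL-NRIP3 arrays, 338, 381 and 376 on control arrays and 382, 410.3 and 391 on deleted arrays. The groups do not overlap in either model, although in the second model the values 381 and 382 of the nearest arrays are almost equal. The difference of responses was 0.31 ± 0.12 (SE, limma adjusted p = 0.16), and a further Tsr1 probe set was at −0.21 in MLL-AF9 and −0.06 in MLL-NRIP3 leukemia. Utp20, a component of the early small subunit particle, was at −0.22, the nucleolar scaffold gene Heatr1 at −0.15 (groups without overlap) and Wdr43 at −0.20 in MLL-AF9 leukemia, with adjusted p from 0.17 to 0.24. Noc4l and Rrp12 were at −0.05 and −0.08. In MLL-NRIP3 leukemia 4 of the 6 were positive, with a median of 0.07.

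The PeBoW complex of Pes1, Bop1 and Wdr12, required for the large subunit, was the one role group with negative values for each of its members in both models. Wdr12 had the largest. On MLL-NRIP3 arrays it read 550.0, 525 and 532 on control arrays and 437, 442 and 331 on deleted arrays. All deleted arrays lie below the controls, and deleted array 3 is lowest. Wdr12 was at −0.41 ± 0.13 (SE, limma adjusted p = 0.18), and a further probe set of Wdr12 was at −0.01. Bop1 and Pes1 were at −0.18 and −0.12 in MLL-AF9 leukemia and at −0.05 and −0.02 in MLL-NRIP3 leukemia.

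Among 9 measured genes for the large subunit, Ppan, the Peter Pan homolog of early large subunit assembly, had the largest change of all members in MLL-AF9 leukemia. It read 164, 140.4 and 159 on control arrays and 104, 112 and 118 on deleted arrays. The groups do not overlap, with the lowest control above the highest deleted array by a wider gap than that between any deleted arrays. Ppan was at −0.42 ± 0.08 (SE, limma adjusted p = 0.0070). The call held without each of the 6 arrays in turn and ended in the fit of all 12 arrays (adjusted p = 0.23). In MLL-NRIP3 leukemia Ppan read 246, 301 and 216 on control arrays and 258, 262 and 199.6 on deleted arrays. These groups overlap, at −0.07 ± 0.17 (SE). The difference of responses was 0.35 ± 0.19 (SE, adjusted p = 0.35).

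Nop2, the ribosomal RNA cytosine methyltransferase, had the smallest p of all members for the difference between the models. It read 150.5, 144 and 167 on MLL-AF9 control arrays and 120.4, 133 and 125 on deleted arrays, without overlap. In MLL-NRIP3 leukemia it read 196, 204 and 193 on control arrays and 255, 256 and 196 on deleted arrays, of which the first 2 lie above all controls and the third lies among them. The log2 fold changes were −0.26 ± 0.08 (SE, limma adjusted p = 0.062) and 0.23 ± 0.14 (SE, adjusted p = 0.45). Their difference was 0.48 ± 0.15 (SE, adjusted p = 0.0998), with adjusted p of 0.011 without MLL-NRIP3 Rictor-deleted array 3.

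Rrp1b, a nucleolar processing factor, read 122, 126 and 112 on MLL-AF9 control arrays and 89.0, 105 and 98.2 on deleted arrays. The groups do not overlap, and the log2 fold change was −0.26 ± 0.08 (SE, limma adjusted p = 0.072), while 2 dimmer probe sets were at −0.13 and −0.08. In MLL-NRIP3 leukemia it ranged from 104 to 238 on control arrays and from 143 to 287 on deleted arrays. The other large subunit genes gave no call. Nop16 and Ftsj3 were at 0.33 and 0.41 in MLL-NRIP3 leukemia with SE of 0.18 and 0.25, Noc2l was at −0.21, and Wdr74, Ddx18 and Grwd1 lay between −0.12 and 0.09 in both models.

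The 4 metabolic enzymes and the mitochondrial chaperonin gave no call in either model. Srm and Odc1 make polyamines, Cad starts pyrimidine synthesis, and Nme1 is a nucleoside diphosphate kinase. In that order they were at −0.17, −0.06, 0.02 and 0.15 in MLL-AF9 leukemia and at 0.14, 0.38, 0.17 and 0.03 in MLL-NRIP3 leukemia. Hspd1 and Hspe1 encode the paired chaperonins of the mitochondrial matrix, and their annotated spans on chromosome 1 overlap head to head by 96 bases. Hspd1 read 1259, 1380.4 and 1358 on MLL-NRIP3 control arrays and 1729, 1895 and 1485 on deleted arrays. The groups do not overlap, and the log2 fold change was 0.34 ± 0.11 (SE, limma adjusted p = 0.16). In MLL-AF9 leukemia Hspd1 was at −0.02 ± 0.07.

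Hspe1 read 879, 758 and 737 on MLL-AF9 control arrays and 666, 693 and 741 on deleted arrays. In MLL-NRIP3 leukemia it read 921, 765 and 898 on control arrays and 1099, 1011 and 892.5 on deleted arrays. The groups overlap in both models through deleted array 3. The log2 fold changes were −0.17 ± 0.07 (SE) and 0.21 ± 0.12 (SE), and their difference was 0.38 ± 0.14 (SE, limma adjusted p = 0.16), close to the 0.36 of its neighbour Hspd1.

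**Figure D2:**
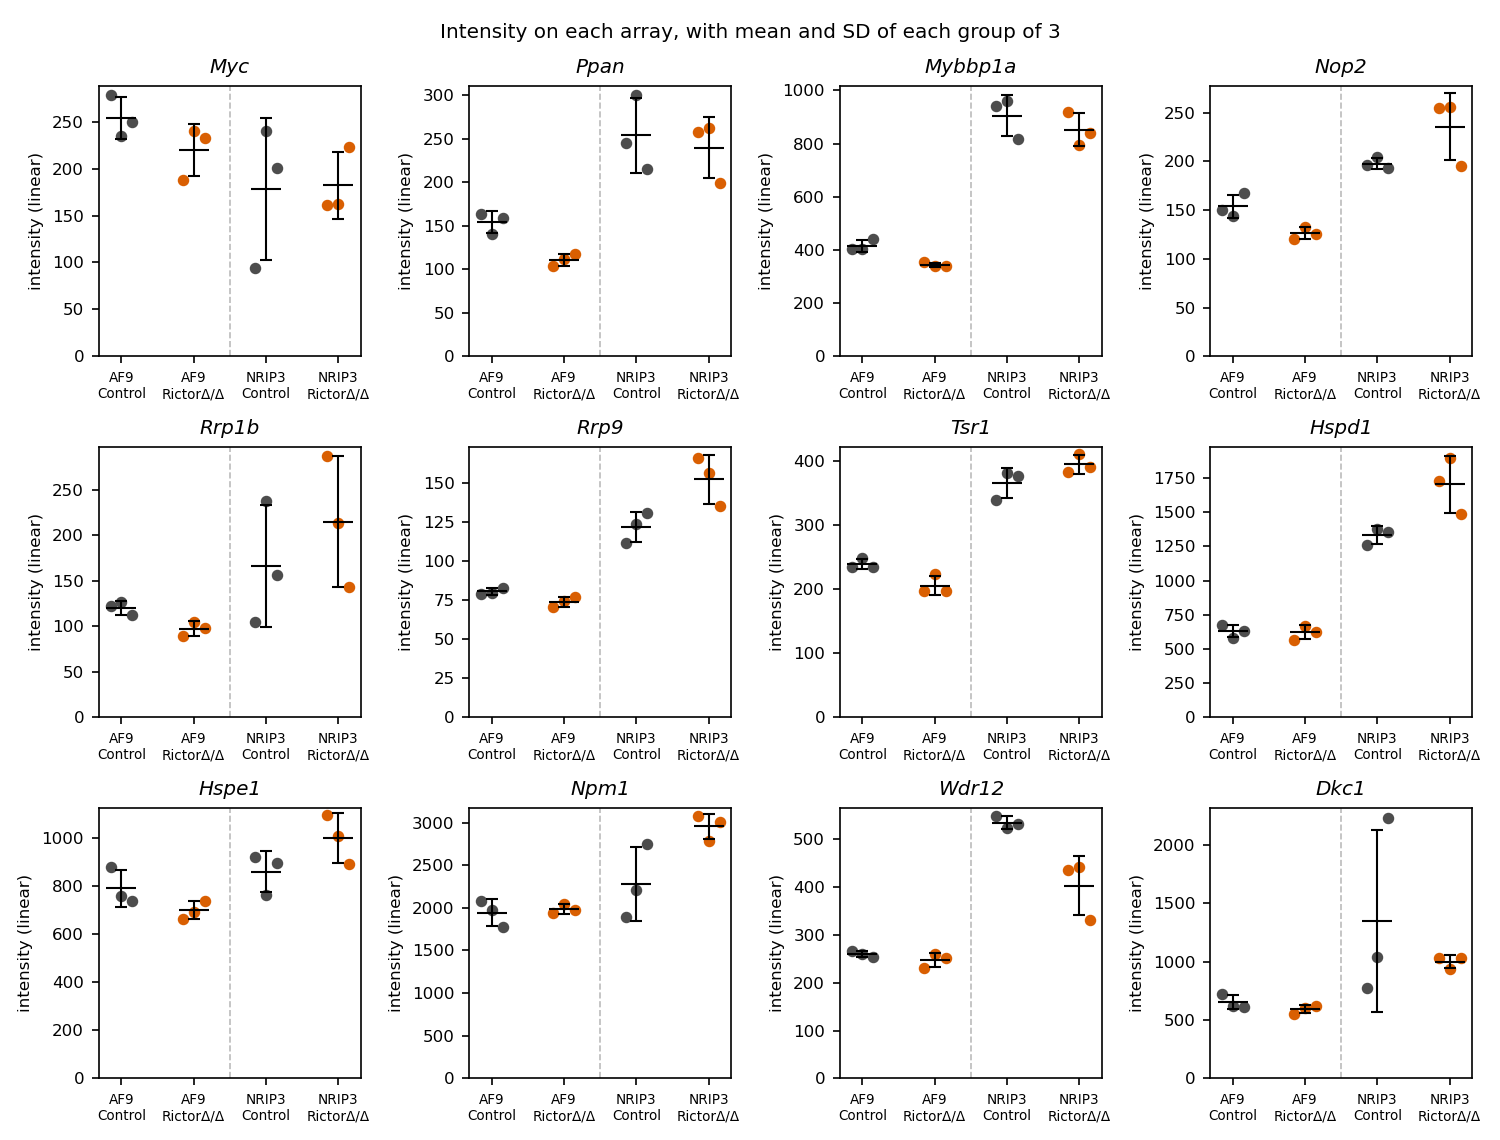
Linear intensity of 12 members on each array, with the horizontal bar at the mean and error bars of 1 SD for each group of 3; grey points are Control and orange points RictorΔ/Δ, and the dashed line separates the models, whose levels are not on the same scale. Ppan and Mybbp1a separate in MLL-AF9 leukemia, Rrp9 and Tsr1 separate in opposite directions in the models, and MLL-NRIP3 control arrays 1 for Myc and 3 for Dkc1 lie far from their group.

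Across the members, 10 of 41 had all MLL-AF9 deleted arrays below all controls (15.7% of all genes) and 0 had them above (11.4%). In MLL-NRIP3 leukemia 6 of 41 had them all above (9.7% of all genes) and 1 below (12.7%). The shift was not the same on every array. The median deviation of the members from the mean of the controls of their model was −0.19, −0.05 and −0.09 on MLL-AF9 deleted arrays, where 38, 28 and 33 of 41 members lay below that mean. On the MLL-NRIP3 deleted arrays it was 0.16, 0.22 and −0.07, with 6, 5 and 26 of 41 below. Deleted array 3 of this model is thus on the side of control array 1, at −0.08, and not with the other deleted arrays. Over all genes tested the array medians ran from −0.05 to 0.01.

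**Figure D3:**
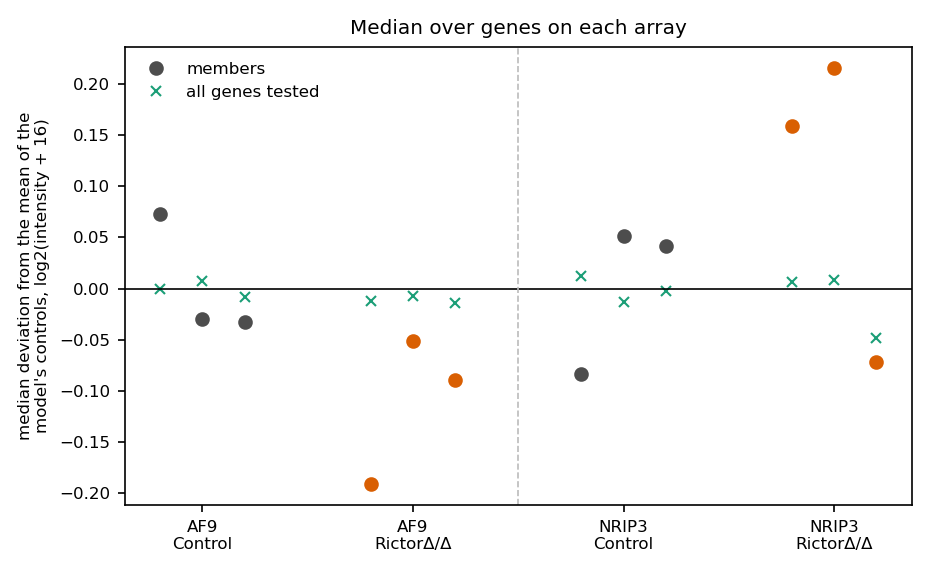
Median over the 41 members (dots) and over all genes tested (crosses) of the deviation of log2(intensity + 16) from the mean of the controls of the same model, for each array; grey dots are Control and orange dots RictorΔ/Δ. The 3 MLL-AF9 deleted arrays lie at −0.19 to −0.05, and MLL-NRIP3 deleted arrays 1 and 2 at 0.16 and 0.22, while deleted array 3 is at −0.07.

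Some members host small nucleolar RNA genes or hold an E-box. A list of Myc targets and ribosome biogenesis factors is not independent of either feature. Small nucleolar RNA genes lie inside 9 of the 41 (22.0%), against 2.14% of 12555 tested genes placed in the RefSeq table: Ncl, Gnl3, Nop56, Nop58, Dkc1, Wdr43, Tsr1, Ppan and Odc1 host 22 of them. The median log2 fold change of these 9 was −0.20 in MLL-AF9 leukemia and 0.07 in MLL-NRIP3 leukemia, and that of the other members −0.09 and 0.13. The 9 members with an E-box had medians of −0.20 and 0.03, against −0.09 and 0.12 for 26 measured members with an entry but without the motif. Over all genes tested, those with and without an E-box both had a median of −0.01 in MLL-AF9 leukemia. These are descriptions of small overlapping groups, and no test was made of them.

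Among the relatives and partners of Myc, Mycn, the N-Myc gene, passed the test where Myc did not. In MLL-AF9 leukemia it read 2450, 1503 and 2141 on control arrays and 1191, 1048 and 1159 on deleted arrays. All deleted arrays lie below the controls, by a wide margin. Mycn fell 1.75-fold, at −0.81 ± 0.14 (SE, limma adjusted p = 0.0040). The call held without each array in turn (adjusted p from 2.5e-05 to 0.030) and ended with the mean of the Mycn probe sets (−0.26, adjusted p = 0.094) and in the fit of all arrays (0.073).

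In MLL-NRIP3 leukemia Mycn read 666, 648 and 924 on control arrays and 737, 939 and 1179 on deleted arrays, which overlap, at 0.34 ± 0.19 (SE, limma adjusted p = 0.40). The difference of responses was 1.14 ± 0.27 (SE, adjusted p = 0.035), a call that ended without MLL-NRIP3 control array 1 or 2, without both (0.82, adjusted p = 0.18) and without any of 6 other arrays (adjusted p up to 0.098 for single arrays). It also ended with the mean of probe sets (0.32, adjusted p = 0.19) and with the hybridization control covariate (0.85, adjusted p = 0.25). Of the 12 genes of this list 4 were called lower and 0 higher in MLL-AF9 leukemia, against 4.46% and 3.8% of all genes. Besides Mycn these were Mxd4 (−0.32), Mga (−0.33) and Mlxip (−0.36). Mxd4 encodes a repressor that competes with Myc for Max, Mga a further Max partner, and Mlxip a partner of the Max-like protein Mlx. The calls ended without any of 4 arrays for Mxd4 and any of 5 for Mga (limma adjusted p up to 0.10 and 0.14). With the mean of probe sets these 2 calls also ended (−0.17 and −0.11, adjusted p of 0.19 and 0.18). Whether the Mlxip call holds without single arrays is not given here. In the fit of all 12 arrays 0 of the 12 genes were called in MLL-AF9 leukemia. In MLL-NRIP3 leukemia Mxd4 was at −1.07 ± 0.29 (SE, limma adjusted p = 0.11), without overlap of the groups. It read 283, 252 and 121 on control arrays and 103, 97.2 and 71.5 on deleted arrays. Control array 3 is close to the deleted arrays. Much of the size of the change thus rests on control arrays 1 and 2, whose hybridization control signals stand apart.

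**Figure D4:**
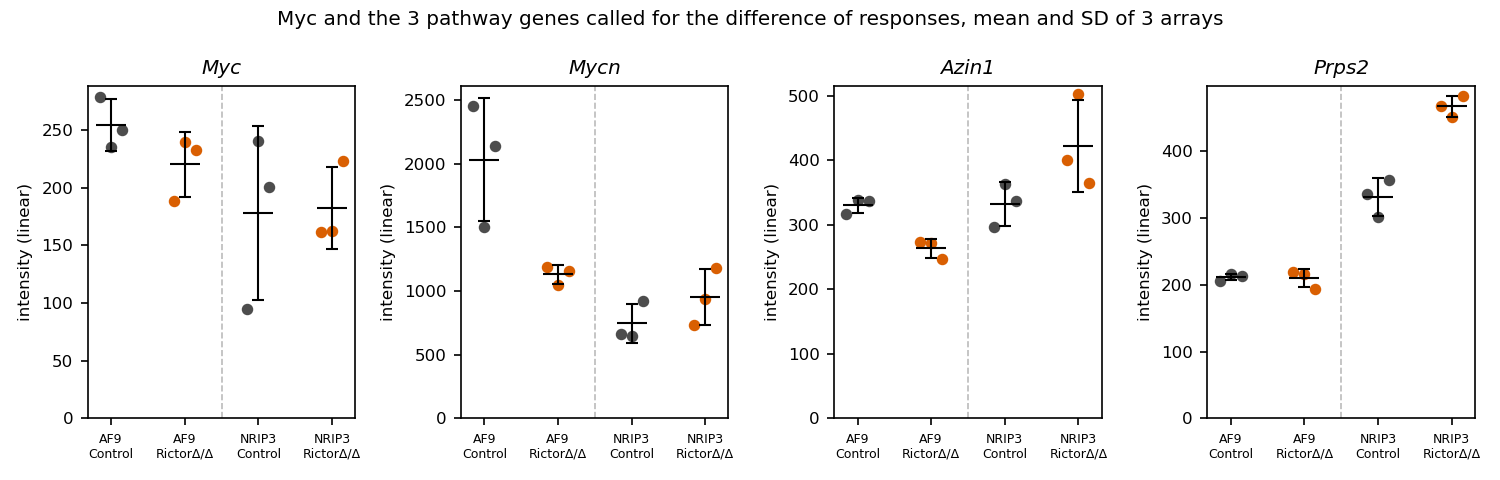
Linear intensity on each array of Myc and of Mycn, Azin1 and Prps2, the pathway genes called for the difference of responses, with the mean (bar) and 1 SD for each group of 3; grey points are Control and orange points RictorΔ/Δ. Mycn lies between 1503 and 2450 on MLL-AF9 control arrays and between 1048 and 1191 on deleted arrays, while the points of Myc overlap.

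Other genes of the same pathways, from lists drawn up alongside the members, gave few calls. In the fit of all 12 arrays no gene of any of these lists was called in MLL-AF9 leukemia. Calls were also few among all genes tested: 4.46% were lower and 3.8% higher in MLL-AF9 leukemia, and 1.53% were called in MLL-NRIP3 leukemia. These shares belong beside the count of each list below. Of 46 further small subunit factors 1 was called lower in MLL-AF9 leukemia, Utp4 (−0.28 ± 0.06 SE, limma adjusted p = 0.021), and of 45 further large subunit factors 2, Gtpbp4 (−0.24 ± 0.06 SE, adjusted p = 0.027) and Nop53 (−0.20 ± 0.05 SE, adjusted p = 0.044). The call of Utp4 ended without any of 5 of the 6 arrays, that of Gtpbp4 without each of them and that of Nop53 without any of 5 (adjusted p up to 0.081, 0.10 and 0.16). With the mean of probe sets Gtpbp4 was at −0.09 and Nop53 at −0.14 (adjusted p of 0.43 and 0.27). The medians of these lists were −0.04 and −0.07, nearer to 0 than the −0.11 of the members, and 0.08 and 0.09 in MLL-NRIP3 leukemia, where 0 were called and the smallest p belonged to Esf1 (0.69, adjusted p = 0.15) and Gnl3l (0.49, adjusted p = 0.18). Of 14 genes of the RNA polymerase I machinery 1 was called, Taf1c, a subunit of its promoter selectivity factor (−0.33 ± 0.09 SE, adjusted p = 0.0497, up to 0.19 without 1 array), and of 12 RNA polymerase III genes 0, Brf1 having the smallest p (−0.22, adjusted p = 0.11). In MLL-NRIP3 leukemia neither list had a call, the polymerase I subunit gene Polr1c was at −0.27 (adjusted p = 0.45), and Maf1, the repressor of RNA polymerase III, was at −0.42 (adjusted p = 0.22).

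In nucleotide synthesis 1 of 20 genes was called in MLL-AF9 leukemia, Adss, which acts in the step from IMP to AMP. It read 536, 562 and 583 on control arrays and 446, 451 and 440.2 on deleted arrays, without overlap, at −0.32 ± 0.05 (SE, limma adjusted p = 0.0040, or 0.17 in the fit of all 12 arrays). Prps2, which makes the ribose phosphate donor of nucleotides, was called for the difference of responses (0.49 ± 0.12 SE, adjusted p = 0.038). It read 337, 301 and 358 on MLL-NRIP3 control arrays and 468, 451 and 483 on deleted arrays, and was at −0.01 in MLL-AF9 leukemia. Mthfd2, a mitochondrial folate enzyme, was at 0.80 ± 0.16 (SE, adjusted p = 0.057) in MLL-NRIP3 leukemia.

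In polyamine metabolism 1 of 7 genes was called in MLL-AF9 leukemia, Azin1, the inhibitor of the antizyme that sends ornithine decarboxylase to degradation. It read 317, 338 and 337 on control arrays and 273, 272 and 247 on deleted arrays, at −0.31 ± 0.06 (SE, limma adjusted p = 0.012). In MLL-NRIP3 leukemia its deleted arrays lay above all controls, at 0.32 ± 0.15 (SE, adjusted p = 0.30). The lowest deleted value (364.5) and the highest control value (363.9) are almost equal. The difference of responses of 0.63 ± 0.16 was called (adjusted p = 0.046). Sat1, which acetylates polyamines for their breakdown, was at −0.60 ± 0.14 (SE, adjusted p = 0.082) in MLL-NRIP3 leukemia. With the mean of its probe sets Azin1 was at −0.10 in MLL-AF9 leukemia (adjusted p = 0.30), and the calls of Azin1 and Prps2 for the difference ended without any of 9 single arrays each (adjusted p up to 0.12 and 0.11). With the mean of probe sets these differences were 0.30 and 0.28 (adjusted p of 0.31 and 0.11), and with the covariate 0.56 and 0.40 (adjusted p of 0.22 and 0.21).

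Calls in the remaining lists lay on both sides. Of 19 other Myc targets 2 were called higher in MLL-AF9 leukemia, the cell cycle factor gene E2f2 (0.50 ± 0.08 SE, limma adjusted p = 0.0027, or 0.25 in the fit of all 12 arrays) and Set (0.25 ± 0.07 SE, adjusted p = 0.042), and 1 lower, the amino acid transporter gene Slc7a5 (−0.37 ± 0.09 SE, adjusted p = 0.024); the median was 0.08. The calls of Set and Slc7a5 ended without any of 5 and 4 arrays (adjusted p up to 0.14 and 0.0998), and with the mean of probe sets Set was at 0.17 (adjusted p = 0.17). Of 10 genes known to be repressed with Myc activity 1 was called, Txnip, lower at −0.26 ± 0.07 (SE, adjusted p = 0.040, or up to 0.16 without 1 array and 0.48 with the mean of probe sets, at −0.10). In MLL-NRIP3 leukemia these lists had no call, with Tfam at 0.41 (adjusted p = 0.26) and Btg2 at 1.20 (adjusted p = 0.17). Among 17 chaperonins and 16 translation factors 0 were called in either model. The smallest p belonged to Hspa9 (−0.19) and Eef1d (−0.17, adjusted p = 0.061) in MLL-AF9 leukemia, and to Cct5 (0.22) and Eif4ebp2 (−0.57, adjusted p = 0.077) in MLL-NRIP3 leukemia.

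**Figure D5:**
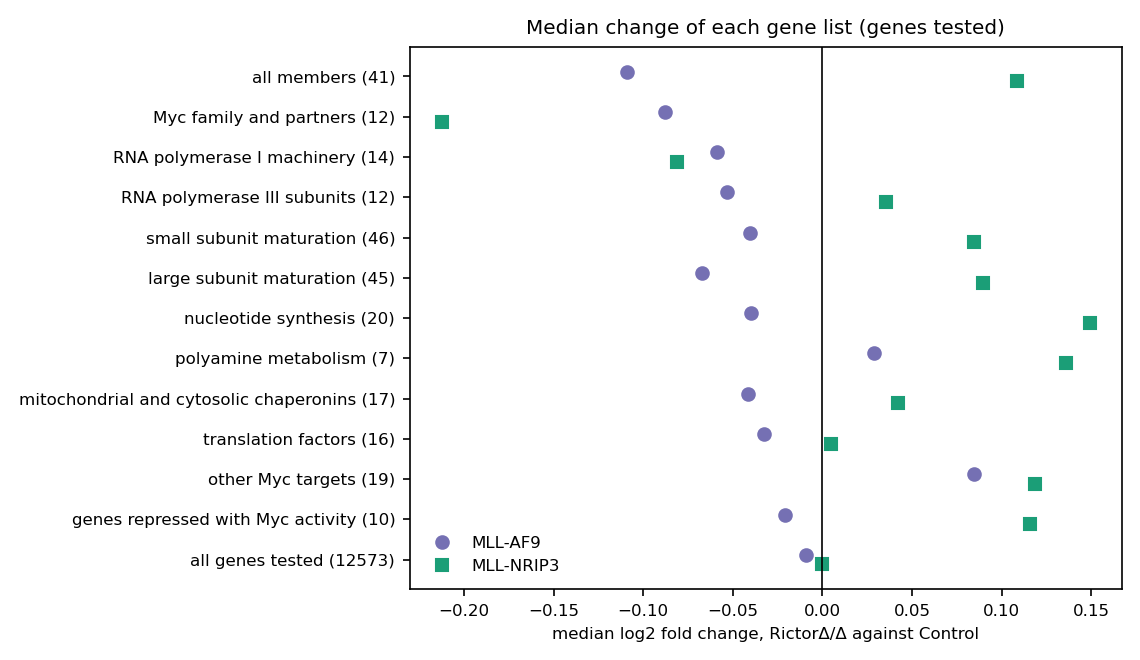
Median log2 fold change, RictorΔ/Δ against Control, of the members, of each pathway list and of all genes tested, in MLL-AF9 (circles) and MLL-NRIP3 leukemia (squares); the number of genes tested is in brackets. The members have the lowest MLL-AF9 median of these lists, −0.11, and medians of both subunit maturation lists are negative in MLL-AF9 and positive in MLL-NRIP3 leukemia.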

How the data were processed

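Total RNA (7 µg) was labelled for Affymetrix arrays, per the labels' protocols. The authors deposited linear intensities of probe sets; the sources used here do not name the summary or normalization method. Both models have different value distributions, so levels were not compared between them. Of 45101 probe sets 34958 had 1 gene symbol, 932 several and 9211 none. Genes (18032 of 18194 matched by RefSeq, GRCm38.p6) were read from the brightest single-symbol probe set, and those with a mean under 7.70, the 40th percentile of probe sets, were left out.

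Values entered limma 3.58.1 in R 4.3.3 as log2(intensity + 16), which understates changes of dim genes; lmFit was followed by eBayes with a trend. Each model was fitted on its 6 arrays, because the arrays of MLL-NRIP3 leukemia spread more, and the difference on all 12. Tests were 2-sided, adjusted by Benjamini-Hochberg. With 3 arrays a side, an exact permutation p is at least 0.1, so none was used. The fit was tested on simulated data. Figures were drawn with matplotlib 3.10.9 and tables with pandas 2.3.3 under Python 3.11.15.

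The members, lists and fit were chosen with earlier results of these data known. Named in full were Myc, every member called and, per comparison, up to 4 members with the smallest p; from each pathway list, called genes (at most 3) or that with the smallest p. Gnl3, Nop56, Pprc1, Dkc1 and Mlxip were added after their values were seen. Alternatives were quantile normalization, median centring, filters, pseudocounts, the mean of probe sets, all arrays in 1 fit, array weights, a replicate block, no trend, the hybridization control signal as a covariate, MLL-NRIP3 control arrays 1 and 2 omitted together, and each array left out. Each dimmer probe set of a member was fitted on its own, an alternative added afterwards.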

Additional observations from a re-analysis of the deposited data

Results flagged for a closer look

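Rrp9 and Tsr1 had all 3 Rictor-deleted arrays below the controls in MLL-AF9 leukemia and above them in MLL-NRIP3 leukemia. The difference of responses was 0.39 for Rrp9 and 0.31 for Tsr1 on the log2 scale. Its limma adjusted p was 0.15 and 0.16, so neither passed the threshold. Of all genes tested 15.7% had all deleted arrays lower in MLL-AF9 and 9.7% had them all higher in MLL-NRIP3 leukemia. The share of all genes with both is not given here. For Tsr1 the nearest MLL-NRIP3 arrays were almost equal, at 381 (control) and 382 (deleted), and its further probe set was negative in both models.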

How the results depend on the processing

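The median log2 fold change of the members kept its sign under every alternative run in the 3 comparisons. Counts of calls moved more. In MLL-AF9 leukemia the 2 members called became 1 with the mean of probe sets, 0 in the fit of all 12 arrays and 4 with the hybridization control covariate; genes called went from 1039 to 176 in the fit of all arrays. Without 1 array there were 1 to 2 members and 582 to 963 genes. In MLL-NRIP3 leukemia 0 members became 3 in the fit of all 12 arrays, 1 with the covariate and 1 without control arrays 1 and 2. The 192 genes became 82 with the mean of probe sets, 1734 in the fit of all arrays, 30 with the covariate and 27 without control arrays 1 and 2. Without 1 array there were 0 to 1 members and 30 to 862 genes. For the difference 0 members became 1 with quantile normalization (Nop2), 10 with array weights, 1 with the covariate and 1 without MLL-NRIP3 control arrays 1 and 2; the last of these is Dkc1, as in MLL-NRIP3 leukemia, and rests on control array 3, the only control left, where Dkc1 is far above the other controls. The 539 genes became 2529 with array weights and 272 with the covariate. Without 1 array there were 0 to 4 members and 309 to 1405 genes, the highest without MLL-NRIP3 control array 3. Fewer arrays make some of these counts lower; the other causes were not tested.

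The log2 fold change of Myc in MLL-NRIP3 leukemia reversed to −0.37 with the covariate, −0.14 without control arrays 1 and 2, and lay between −0.26 and 0.34 without 1 array. Its difference of responses reversed to −0.022 with array weights and −0.13 with the covariate, and lay between −0.061 and 0.55 without 1 array.

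Replicate numbers did not pair the arrays: same-numbered arrays had correlations of deviations of −0.10 to 0.02 in MLL-AF9 and −0.14 to 0.06 in MLL-NRIP3 leukemia. With a replicate block 2, 0 and 0 members and 960, 163 and 457 genes were called in the 3 comparisons.

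The 3 arrays in a group, a spread in MLL-NRIP3 leukemia about that of the shifts themselves, the tie of sex to genotype in MLL-AF9 leukemia and the unknown normalization limit the precision.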

Other observations

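Nolc1 and Pprc1 are neighbours on chromosome 19, with 2937 bases between their annotated spans, and were at 0.04 and −0.21 in MLL-AF9 leukemia.

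On MLL-NRIP3 control arrays the median SD of a member was 0.16 on the log2 scale, and the largest was 0.78, that of Dkc1. On MLL-AF9 control arrays these values were 0.09 and 0.23, the larger that of Ftsj3.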
